A study of Mus musculus with 41 samples.

Results

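The within-mouse comparison of lung with liver covered the 12 mice of which both organs were put on an mRNA array, and addressed which transcripts answered inhaled nanoTiO2 differently in the 2 organs of the same animal. The mice were chosen by mouse number alone. Exposed mice 1, 12, 13, 19, 20 and 23 and air mice 24, 26, 27, 29, 32 and 34 carried a number in both organs, which gave 24 of the 28 mRNA arrays and of the 41 arrays of the series. All animals were female C57BL/6 mice, C57BL/6BomTac in the study's methods, whose age the labels give as equivalent to GD4, a day of gestation, and the methods describe them as time-mated mice that had not conceived. The exposed group inhaled 40 mg/m3 nanoTiO2, a coated rutile ultraviolet filter material, for 1 h a day on 11 consecutive days, the air group inhaled filtered air on the same schedule, and both were killed 5 days after the last session. Total RNA of a part of the lung or of the liver of 1 mouse was labelled with Cy5 on each array, and a commercial RNA pool of mouse cell lines was labelled with Cy3. Every level below is therefore a log2 ratio of sample over reference RNA, and the quantity compared is the lung log2 ratio minus the liver log2 ratio of a mouse.

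Particles that reach the alveoli are engulfed by resident macrophages, and these cells and the airway epithelium release chemokines that draw in monocytes and neutrophils. Acute-phase proteins, which include serum amyloid A, lipocalin 2 and complement C3, are made mainly by hepatocytes during systemic inflammation, and several are also made in the airways. A lung minus liver value removes whatever shifted both organs of a mouse equally and keeps what shifted them unequally.

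The organ labels were borne out by marker genes in the air mice. All 15 lung epithelium markers were higher in lung than in liver, with a median difference of 4.54 on the log2 scale, and all 24 hepatocyte markers were higher in liver, with a median of -5.32. Between 61.3 and 67.5% of probes were well above background in the Cy5 channel of the lung arrays and between 55.1 and 70.5% in that of the liver arrays. Exposed mice 20 and 23 were in hybridization block 4 of the labels, which held no air mouse of the comparison. Exposed mice occupied slide positions 1 and 2 and air mice positions 3 and 4 in both organs, so exposure and slide position cannot be told apart. In RNA of a whole organ, the number of cells of a type and the RNA per cell cannot be told apart either.

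The exposure difference of the within-mouse value (exposed mean minus air mean) passed an adjusted p of 0.05 in limma at 45 of 41170 probes, which is 0.109% of those tested. It was higher at 41 probes (0.0996%) and lower at 4 probes (0.00972%), and 2438 probes had an unadjusted p below 0.05. The largest differences belonged to Saa3, an acute-phase apolipoprotein (5.16-fold), Ly6f, a cell-surface protein of the Ly6 family (4.2-fold), Lcn2, the siderophore-binding lipocalin 2 (3.37-fold), Slc26a4, the anion exchanger pendrin (3.25-fold), and Noxo1, the organizer of the NADPH oxidase NOX1 (2.88-fold). The 45 probes stood for 41 named genes and 1 probe with no gene name, and 14 of them differed by over 2-fold. The exposed and air mice did not overlap at 44 of the 45, with Zmynd15 as the exception, where 190 of all probes (0.462%) did not overlap. At those 44 probes the exact two-sided permutation test gave p = 0.00216. This is the smallest value that 924 splits of 12 mice (462 splits of 11 mice for Slc26a4) can give. Groups that do not overlap always give it, so the test adds nothing to that separation. All 45 differences had the same sign within each of hybridization blocks 1, 2 and 3, the blocks of the labels that held both groups. Where the groups do not overlap this sign is fixed in advance, so only Zmynd15 could have differed.

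At most of the called probes the difference lay in the lung values. Tested organ by organ in the same mice with limma, 64 probes (0.155%) passed in lung and none of 41174 passed in liver, where 2237 had an unadjusted p below 0.05 and the lowest adjusted p was 0.88. For the 41 probes that were higher, the median exposure difference was 0.74 in lung and -0.10 in liver, on the log2 scale. The liver difference was negative at 35 of these 41 probes, a direction that the choice of probes by a lung minus liver value favours. It reached 0.30 at most in size, at Ms4a7, and had an unadjusted p below 0.05 at 5 of the 45 probes. The median within-mouse difference of all probes was -0.01 and 46.5% were positive. The background treatment mattered: after normexp background correction 6 probes passed and 9 of the 45 changed sign, namely those of Proz, Pigr, Uroc1, Itih4, Vnn3, Cfi, Itgae, 1100001G20Rik and Zmynd15, whose signed values stand below beside each gene.

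**Figure D1:**
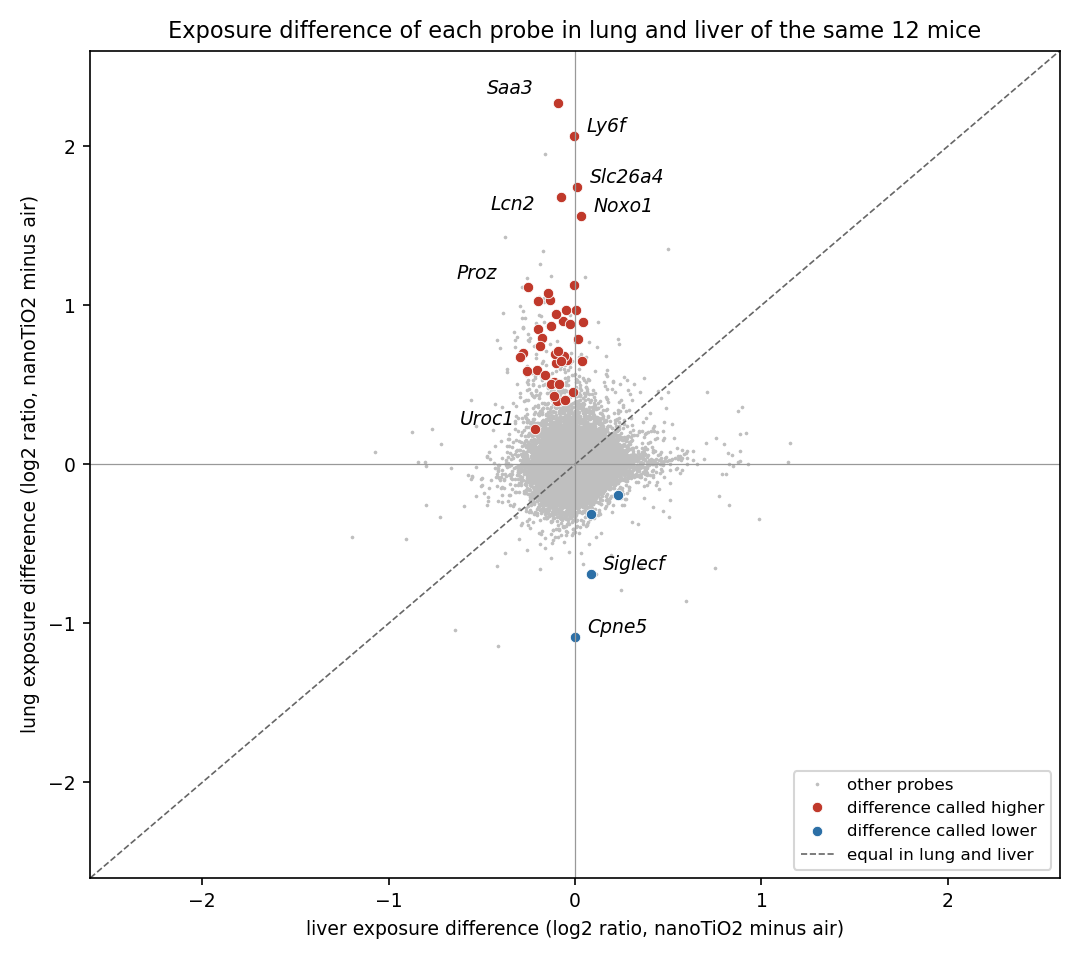
Exposure difference (nanoTiO2 minus air, log2 ratio) of each probe in liver (horizontal axis) and in lung (vertical axis) of the same 12 mice. Red and blue points are the 41 and 4 probes whose lung minus liver difference passed an adjusted p of 0.05, and they lie far from the dashed line of equal change, close to 0 on the liver axis and up to 2.27 on the lung axis.

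The promoters of 4 of the genes with higher values are shown because they share a run of letters that was frequent among the called genes. Promoter windows of RefSeq (build GRCm38.p6, 300 bases around a start) were found for 33 of the 41 named genes, 39 windows in all. The C/EBP letters TTGCNNAA stood on either strand of 12 of these 39 windows (30.8%) against 3547 of 32851 windows of all genes (10.8%). The TATA letters TATAAA stood in 10 of the 39 (25.6%) against 13.6% of all, and NF-kB-like letters (GGG, any 3 bases and TTCC) in 1 of the 39 (2.56%) against 5.56% of all. Such matches describe letters and not bound sites. The windows of Saa3 (chr7:46715627-46715926, minus strand), Ly6f (chr15:75268171-75268470, plus strand), Lcn2 (chr2:32387690-32387989, minus strand) and C3 (chr17:57228087-57228386, minus strand) read 5′ to 3′ as follows, with the C/EBP letters in capitals.
Saa3: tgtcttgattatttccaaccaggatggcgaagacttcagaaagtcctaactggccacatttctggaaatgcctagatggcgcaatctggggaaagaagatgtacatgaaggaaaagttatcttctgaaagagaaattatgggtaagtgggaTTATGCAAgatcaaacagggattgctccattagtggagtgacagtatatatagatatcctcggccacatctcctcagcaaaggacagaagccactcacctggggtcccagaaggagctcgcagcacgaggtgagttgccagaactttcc
Ly6f: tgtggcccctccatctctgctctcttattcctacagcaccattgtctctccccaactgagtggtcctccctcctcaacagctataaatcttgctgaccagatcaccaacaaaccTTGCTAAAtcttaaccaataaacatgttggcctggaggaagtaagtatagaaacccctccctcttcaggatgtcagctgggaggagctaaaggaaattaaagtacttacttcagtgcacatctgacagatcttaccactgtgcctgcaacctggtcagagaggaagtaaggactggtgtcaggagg
Lcn2: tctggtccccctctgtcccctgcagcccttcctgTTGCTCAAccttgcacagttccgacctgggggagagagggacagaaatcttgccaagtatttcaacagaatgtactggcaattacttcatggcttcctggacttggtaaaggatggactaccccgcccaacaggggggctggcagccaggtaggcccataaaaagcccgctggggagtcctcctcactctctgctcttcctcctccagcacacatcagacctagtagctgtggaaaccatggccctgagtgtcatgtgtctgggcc
C3: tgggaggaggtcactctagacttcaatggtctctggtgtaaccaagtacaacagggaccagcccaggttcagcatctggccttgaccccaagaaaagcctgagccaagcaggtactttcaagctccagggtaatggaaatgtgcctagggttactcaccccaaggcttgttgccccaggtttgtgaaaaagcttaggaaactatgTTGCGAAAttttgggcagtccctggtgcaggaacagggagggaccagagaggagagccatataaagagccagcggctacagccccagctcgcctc
Counted from the start, the capitals span -99 to -92 in Saa3, where they are read on the opposite strand, -136 to -129 in Ly6f, -216 to -209 in Lcn2 and -45 to -38 in C3.

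The called genes were read by the roles of their products, against the 0.109% of all probes that passed. Among 28 acute-phase plasma proteins, 4 rose in lung relative to liver and none fell, 26 differences were positive and their median was 0.53, but after normexp without marked spots none passed, 13 were positive and the median was -0.07. The mean log2 ratio of the list in lung was 1.53, 1.20 and 1.20 in exposed mice 1, 13 and 19, in which hepatocyte markers were also highest, 0.83, 1.11 and 1.05 in exposed mice 12, 20 and 23, and 0.47 to 0.72 in the air mice. The 4 were Saa3, Lcn2, C3 and Itih4. The lung minus liver value of Saa3 was -0.68, 0.39 and 2.03 (lowest, median and highest) in the exposed mice and -2.68, -1.68 and -1.29 in the air mice. The groups did not overlap, and in the air mice every liver ratio of Saa3 lay above the lung ratio, whereas in 4 of the 6 exposed mice the lung ratio was the higher. The difference was 2.37 ± 0.39 (SE, n = 6 and 6; limma adjusted p = 0.036), made of 2.27 in lung and -0.09 in liver, and it was 2.66, 2.23 and 1.89 within blocks 1, 2 and 3. Its call was kept in 2 of the 12 fits that left out a mouse.

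Lcn2, the siderophore-binding protein of epithelium and neutrophils, had lung minus liver values of 2.58, 2.75 and 3.38 in the exposed mice and 0.20, 1.17 and 1.56 in the air mice. No exposed value reached down to an air value, and in lung alone the groups stood further apart, at 2.64 to 3.01 in the exposed mice and 1.00 to 1.37 in the air mice. The difference was 1.75 ± 0.20 (limma adjusted p = 0.0026), with 1.68 in lung and -0.08 in liver. Itih4, a plasma inter-alpha-inhibitor heavy chain, moved by 0.63 ± 0.09 (adjusted p = 0.010), a value that became -0.06 after normexp. Saa1, the serum amyloid made chiefly in liver, showed -3.40, -2.37 and -0.90 in the exposed mice against -4.36, -3.54 and -3.28 in the air mice. These groups overlapped, and the Saa1 difference of 1.31 did not pass (adjusted p = 0.33).

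**Figure D2:**
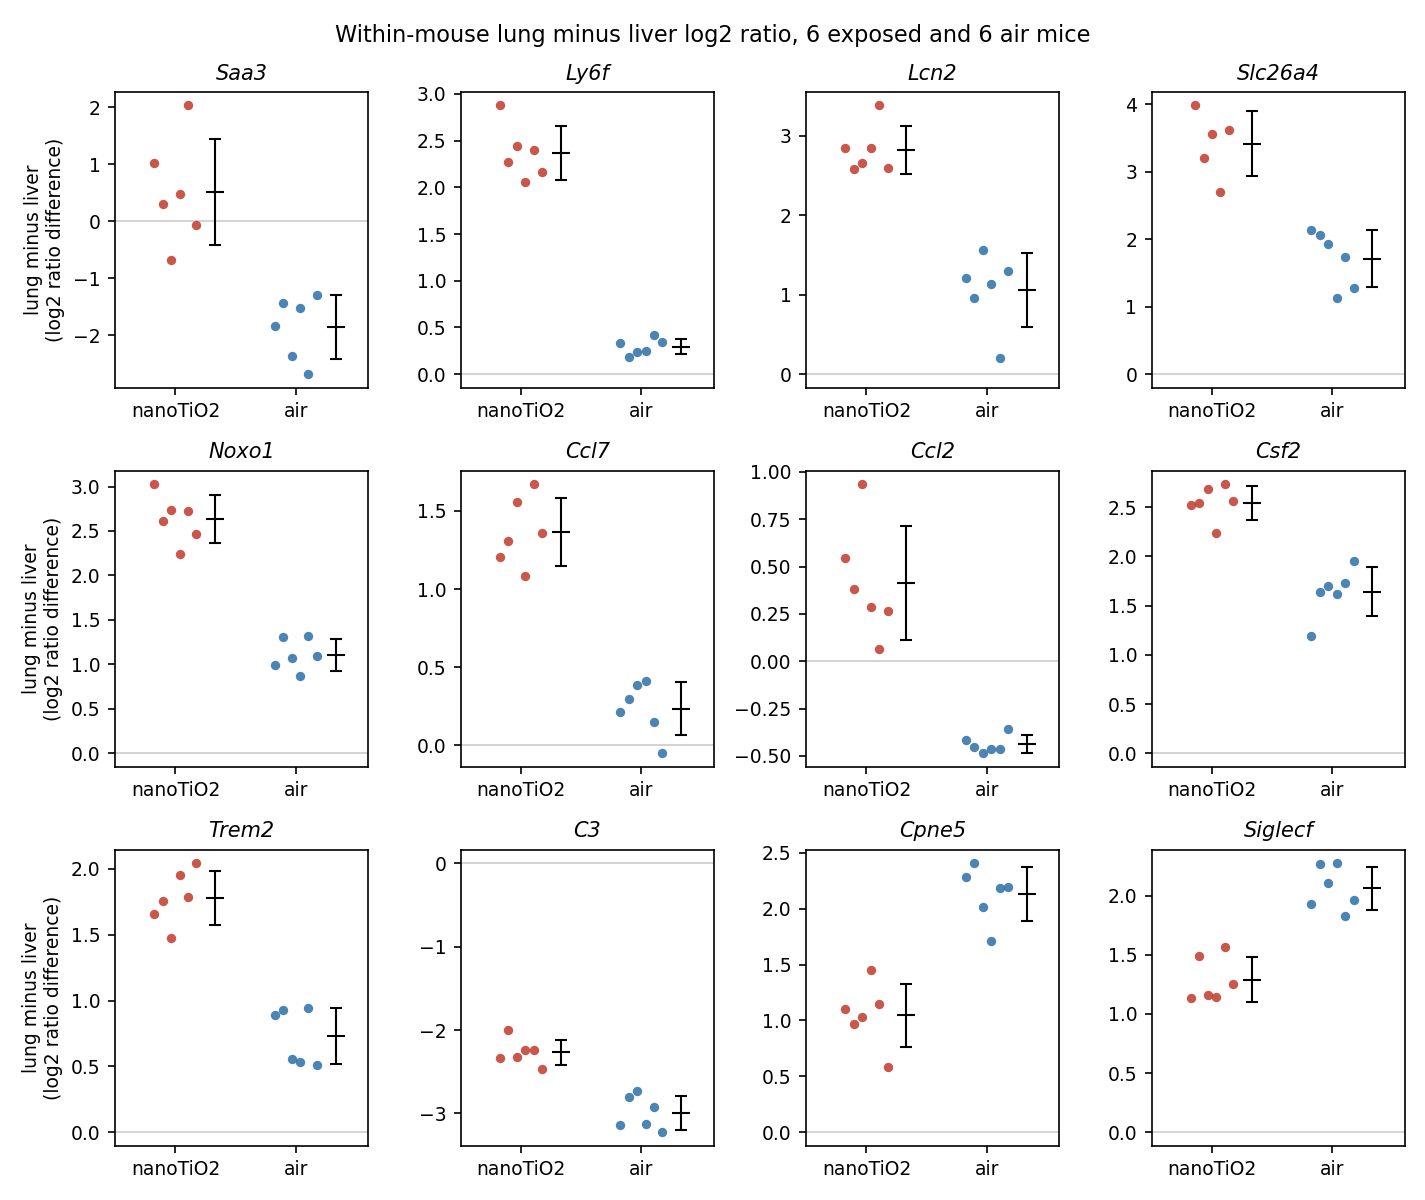
Lung minus liver log2 ratio of each mouse for 12 genes, with exposed mice in red, air mice in blue and black bars for the mean ± SD of 6 mice (5 exposed mice for Slc26a4). The groups stand apart in every panel, with Cpne5 and Siglecf lower in the exposed mice and the other 10 genes higher.

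Ly6f, of the Ly6 family of lipid-anchored surface proteins, had the lowest p of all probes. Its lung minus liver values ran 2.05, 2.33 and 2.88 in the exposed mice and 0.19, 0.29 and 0.42 in the air mice. The lowest exposed mouse thus lay far above the highest air mouse, and the difference was 2.07 ± 0.11 (limma adjusted p = 3.5e-06). Ly6f was well above background on all 12 lung arrays but on 3 of the 12 liver arrays, so that the liver values, between -0.04 and 0.14, are near the detection limit.

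Genes of the airway surface formed another group: 4 of 24 secretory and mucosal defence genes rose, none fell, and 20 differences were positive with a median of 0.40, whereas after normexp without marked spots none passed, 5 were positive and the median was -0.44. Besides Lcn2 these were Slc26a4, Pigr and Vnn3. Pendrin (Slc26a4), which exchanges chloride for bicarbonate at the surface of airway cells, had values of 2.71, 3.56 and 3.98 in 5 exposed mice and 1.13, 1.84 and 2.14 in 6 air mice. The lung spot of exposed mouse 23 was marked as uneven and left out. The groups did not overlap, and the difference was 1.70 ± 0.24 (limma adjusted p = 0.015), all of it from the lung (1.74 in lung and 0.01 in liver).

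Pigr, the receptor that carries dimeric immunoglobulin A across epithelium, rose by 1.16 ± 0.18 (adjusted p = 0.026) from lung ratios of 1.49, 2.15 and 2.56 in the air mice and 2.77, 3.11 and 3.37 in the exposed mice. Its liver ratios of 5.26 to 5.68 were far higher in every mouse, and the sign of its difference depended on the processing, being -0.66 after normexp and -0.20 with the log ratios of the scanner software. Vnn3, a member of the vanin family of pantetheinases, rose by 0.96 ± 0.12 (adjusted p = 0.0047), with lung ratios of 1.07, 1.21 and 1.72 in the air mice and 1.92, 2.21 and 2.40 in the exposed mice, and turned to -0.96 after normexp. Both genes thus separated the groups in lung alone, on a liver background that was brighter in all 12 mice. Slc6a20a, an imino acid transporter listed as Xtrp3s1, rose by 1.02 ± 0.11 (adjusted p = 0.0026) and was well above background on no liver array.

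**Figure D3:**
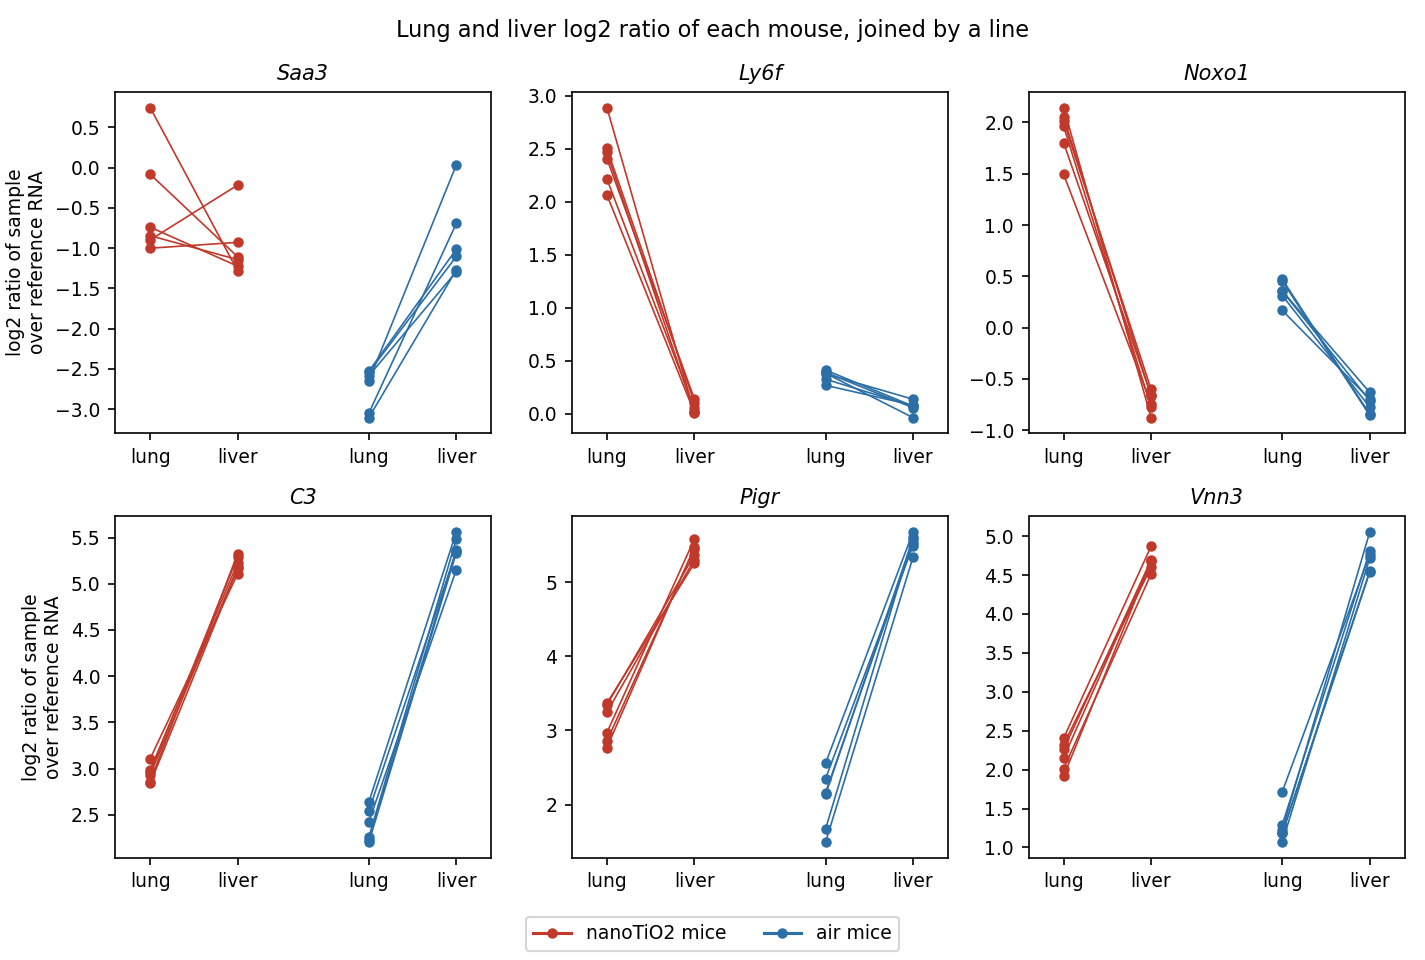
Lung and liver log2 ratio of each mouse for 6 genes, joined by a line, with exposed mice in red and air mice in blue. Liver points of the groups overlap, whereas all lung points of the exposed mice lie above those of the air mice; for C3, Pigr and Vnn3 the liver ratio exceeds the lung ratio in all 12 mice.

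Of 14 NADPH oxidase subunits, 2 rose and none fell, and the median difference was 0.06 with 8 positive. Noxo1, the organizer subunit of NOX1, had lung minus liver values of 2.24, 2.67 and 3.02 in the exposed mice and 0.86, 1.08 and 1.32 in the air mice. The groups were far apart, and the difference was 1.53 ± 0.12 (limma adjusted p = 0.00018), with 1.56 in lung and 0.03 in liver. Noxa1, its activator partner, rose by 0.74 ± 0.08 (adjusted p = 0.0025), from values of 0.25 to 0.59 in the air mice to 0.94 to 1.32 in the exposed mice, and was well above background on 5 of the 12 liver arrays. The pair that rose are thus the 2 cytosolic partners of NOX1.

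Of 35 chemokine ligands, 4 rose and none fell, all of the CC class, and 27 differences were positive with a median of 0.30, against none passed, 20 positive and a median of 0.02 after normexp without marked spots. Ccl2, Ccl7 and Ccl12 are monocyte attractants that share the receptor CCR2, and their genes are neighbours on chromosome 11. The lung minus liver value of Ccl7 was 1.08, 1.34 and 1.67 in the exposed mice and -0.05, 0.25 and 0.41 in the air mice at 1 probe, a difference of 1.13 ± 0.11 (limma adjusted p = 0.00056). The other, brighter Ccl7 probe gave 1.23 ± 0.20 (adjusted p = 0.038), with -0.36 as the lowest exposed value just above -0.38 as the highest air value, and kept its call in 1 of the 12 fits that left out a mouse. For Ccl2 the values were 0.07, 0.33 and 0.93 in the exposed mice and -0.49, -0.46 and -0.36 in the air mice. The lung ratio of Ccl2 was thus below the liver ratio in all 6 air mice and above it in all 6 exposed mice, with a difference of 0.85 ± 0.11 (adjusted p = 0.0096).

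Ccl12 rose by 0.74 ± 0.10 (adjusted p = 0.011), from 0.98 to 1.37 in the air mice to 1.73 to 2.32 in the exposed mice, and was well above background on 5 of the 12 liver arrays. Ccl9, another CC chemokine of myeloid cells, rose by 0.97 ± 0.09 (adjusted p = 0.00056), from values between -2.95 and -2.47 in the air mice to values between -1.98 and -1.61 in the exposed mice. Its liver ratios of 1.93 to 2.35 remained above the lung ratios in every mouse. Csf2, the cytokine GM-CSF that alveolar macrophages need, was the 1 member of 21 inflammatory cytokines that rose, by 0.91 ± 0.11 (adjusted p = 0.0056), and the median of those 21 was 0.02. It was well above background on 1 of the 12 liver arrays.

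Cxcl5, a neutrophil attractant made by alveolar epithelium, had lung minus liver values of 0.14, 1.47 and 3.30 in the exposed mice against -1.22, -0.61 and -0.22 in the air mice. The groups did not overlap, but the difference of 2.11 did not pass (adjusted p = 0.16). Cxcl5 was well above background on all 6 exposed lung arrays, 2 of the 6 air lung arrays and no liver array, so that its difference was measured against values near the detection limit. Cxcl1, which also draws neutrophils, gave 1.20 (adjusted p = 0.39) with exposed values of -2.49 to -0.47 that overlapped the air values of -3.48 to -2.01. Ccl17, a T cell attractant of dendritic cells, gave 0.84 (adjusted p = 0.26). Of 21 neutrophil genes only Lcn2 rose, and 11 differences were positive with a median of 0.02.

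Macrophage genes changed in both directions. Of 31 macrophage phagocyte genes 6 rose, 1 fell and 25 differences were positive, with a median of 0.42, against 2 passed, 19 positive and a median of 0.08 after normexp without marked spots. Those that rose were Trem2, Ctsk, Ms4a7, Clec5a, Mmp12 and Gpnmb. Trem2, a lipid-sensing receptor of phagocytes, had values of 1.47, 1.77 and 2.04 in the exposed mice and 0.51, 0.72 and 0.95 in the air mice. All exposed mice lay above all air mice, and the difference was 1.05 ± 0.11 (limma adjusted p = 0.0021), with 0.85 in lung and -0.20 in liver, while a further Trem2 probe gave 0.59 ± 0.10 (adjusted p = 0.041).

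Ctsk, the lysosomal protease cathepsin K, rose by 1.05 ± 0.15 (adjusted p = 0.014), from 0.90 to 1.82 in the air mice to 2.26 to 2.77 in the exposed mice. Ms4a7, a tetraspan membrane protein of macrophages, rose by 0.97 ± 0.14 and 0.98 ± 0.13 at its 2 probes (adjusted p = 0.018 and 0.010), with liver differences of -0.30 and -0.28. Clec5a, an activating lectin receptor, rose by 0.80 ± 0.12 (adjusted p = 0.017) at 1 probe, whereas its other 2 probes gave 0.15 and 0.01. Gpnmb, a glycoprotein of lipid-laden macrophages, rose by 0.46 ± 0.07 (adjusted p = 0.024) at 1 probe and measured 0.06 at the other. The probes of Clec5a and of Gpnmb therefore disagreed. Mmp12, the macrophage elastase, was well above background on all 6 exposed lung arrays and on no other array of the 24, with lung ratios of -0.21 to -0.05 in the air mice, which are near the detection limit, and of 0.26 to 0.85 in the exposed mice (limma adjusted p in lung = 0.0075).

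The member that fell was Siglecf, a sialic acid receptor of alveolar macrophages and eosinophils. Its lung minus liver values were 1.13, 1.20 and 1.56 in the exposed mice and 1.83, 2.03 and 2.27 in the air mice. The groups did not overlap, and the difference was -0.77 ± 0.10 (limma adjusted p = 0.0085), with -0.69 in lung on arrays that all measured it, while no liver array did. Lilrb4, an inhibitory receptor of myeloid cells, rose by 0.55 ± 0.08 (adjusted p = 0.018). Itgae, the integrin chain CD103 of mucosal lymphocytes and dendritic cells, gave 0.73 ± 0.11 (adjusted p = 0.024) and -0.02 after normexp, and its other probe gave 0.21 and did not pass. Among 27 matrix remodelling genes Timp1, the inhibitor of metalloproteinases, rose by 0.78 ± 0.13 (adjusted p = 0.038), although its other 2 probes gave 0.28 and 0.39 and did not pass. Mmp2, a gelatinase, rose by 0.46 ± 0.07 (adjusted p = 0.027), and the median of the list, in which Mmp12 was the third gene that rose, was 0.08. Timp1 and Mmp2 each kept their call in 2 of the 12 fits that left out a mouse.

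Of 29 complement components 3 rose and none fell, and 27 differences were positive with a median of 0.29, whereas after normexp without marked spots none passed, 10 were positive and the median was -0.26. C3, the component on which all activation routes converge, had lung minus liver values of -2.47, -2.29 and -2.00 in the exposed mice and -3.23, -3.03 and -2.73 in the air mice. Every exposed mouse lay above every air mouse, and the difference was 0.72 ± 0.10 (limma adjusted p = 0.010), with 0.56 in lung and -0.16 in liver (unadjusted p = 0.028). A further C3 probe gave 0.24 and did not pass. C1s, a protease of the first component, rose by 0.49 ± 0.06 (adjusted p = 0.0035), while its other probe gave 0.57 and did not pass. Its partner C1r gave 0.42 (adjusted p = 0.20). Cfi, the protease that inactivates C3b, gave 0.80 ± 0.10 (adjusted p = 0.0050), with 0.59 in lung that did not pass by itself (adjusted p = 0.34) and -0.67 for the difference after normexp.

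**Figure D4:**
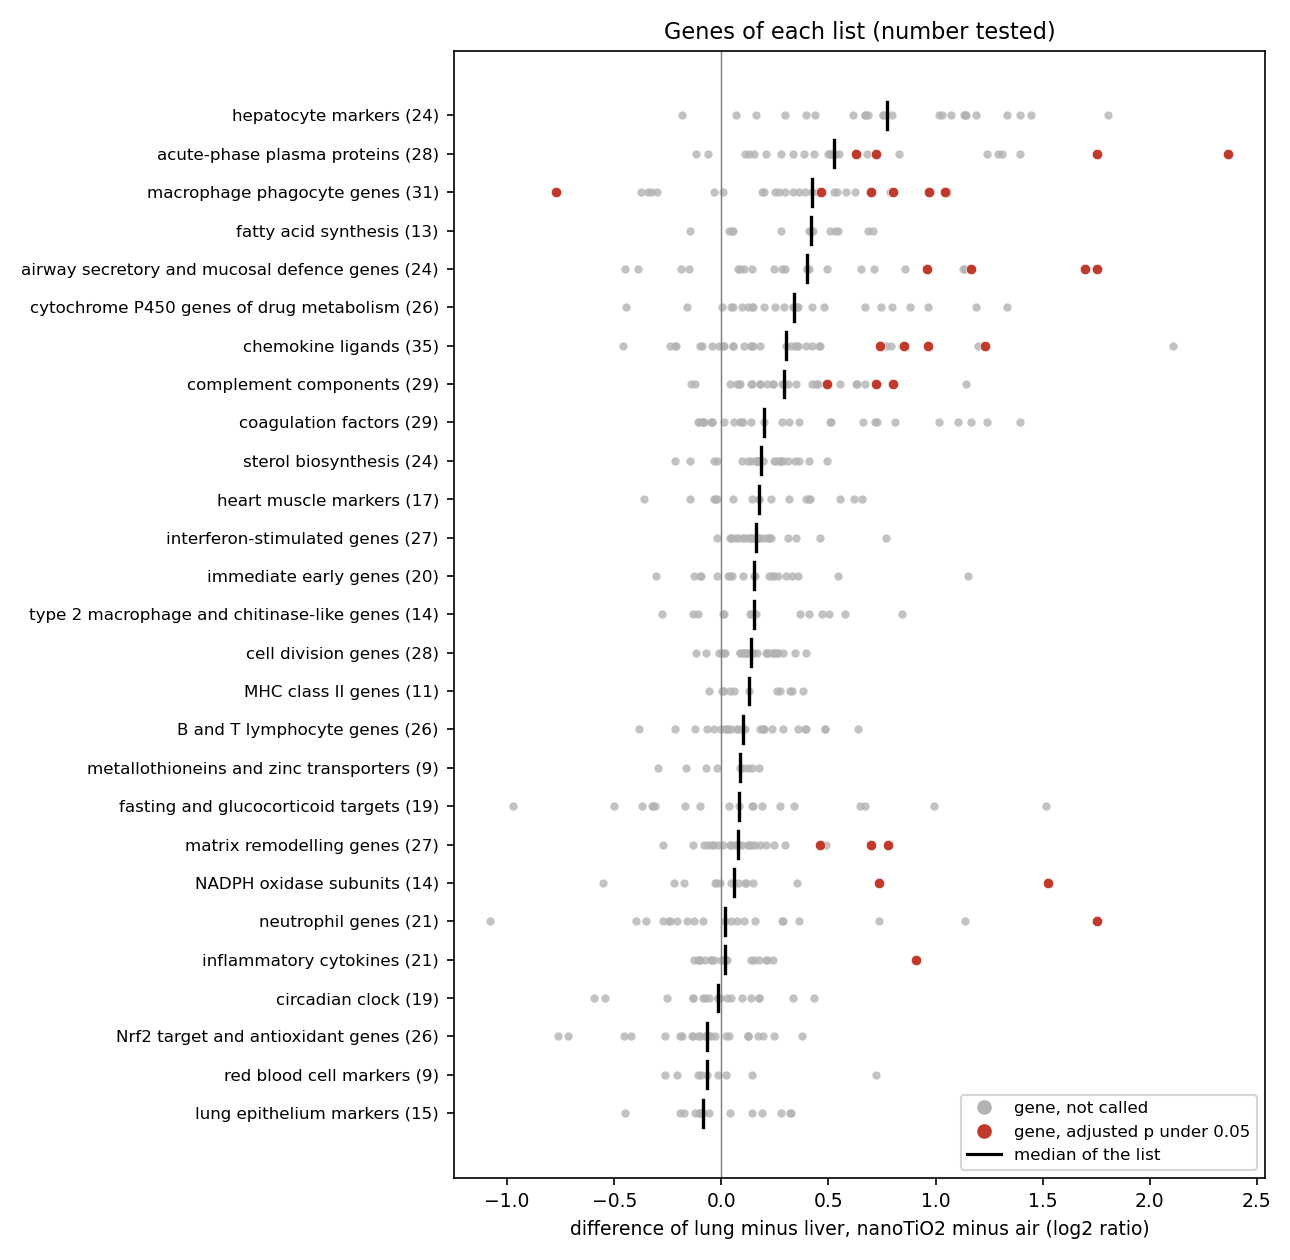
Lung minus liver exposure difference (log2 ratio, horizontal axis) of every tested gene in 27 lists, with the number tested after each name, called genes in red and the list's median as a black bar. The hepatocyte markers have the highest median (0.78) and no called gene, while the called genes lie mostly in the acute-phase, macrophage, airway and chemokine lists.

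Several genes that were higher in lung relative to liver are expressed chiefly by hepatocytes. Proz, the vitamin K-dependent protein Z of plasma, had lung ratios of 0.57, 0.71 and 1.14 in the air mice and 1.54, 1.90 and 2.38 in the exposed mice, beside liver ratios of 7.80 to 8.25 in the air mice and 7.81 to 7.94 in the exposed mice. The groups did not overlap in lung, and the within-mouse difference was 1.37 ± 0.16 (limma adjusted p = 0.0026), but it became -0.21 after normexp and the other 2 Proz probes gave 0.21 and 0.06. Asgr2, a subunit of the asialoglycoprotein receptor, gave 0.97 ± 0.14 (adjusted p = 0.015), with lung ratios of 0.14 to 0.67 in the air mice and 0.87 to 1.42 in the exposed mice. Over the alternative settings the Asgr2 difference ran from 0.03 to 1.26. Uroc1, the urocanase of histidine breakdown, gave 0.44 ± 0.07 (adjusted p = 0.038), of which 0.22 came from lung and -0.22 from liver, and -0.06 after normexp, with 5 of the 12 lung arrays well above background.

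The hepatocyte markers moved with these genes in part of the mice. None of the 24 passed the test, 23 were positive and their median was 0.78, made of 0.56 in lung and -0.22 in liver. Their mean log2 ratio in lung was 2.43, 1.57 and 1.74 in exposed mice 1, 13 and 19, but 0.56, 0.70 and 1.03 in exposed mice 12, 20 and 23, beside 0.44 to 0.95 in the air mice. In liver it was 5.77 to 6.16 in the exposed mice and 5.85 to 6.39 in the air mice, and the lung epithelium markers had nearly the same range in the lungs of both groups, 3.78 to 4.02 against 3.77 to 4.02. The lung ratios of Proz in exposed mice 12, 20 and 23 were 1.54, 2.24 and 1.89, all above the highest air value of 1.14, whereas those of Cfi were 0.68, 1.1 and 0.96, of which the lowest lay within the air range of 0.33 to 0.84. A fit without exposed mice 1, 13 and 19 left only exposed mice 12, 20 and 23 against the air mice, which lowers its power. In it 31 probes passed, and 23 of the 44 original probes still tested were among them. All 44 kept their sign, which was fixed in advance at every probe but that of Zmynd15, because the groups do not overlap. Proz kept its call at 1.34 (limma adjusted p = 0.024) and Cfi at 0.73 (adjusted p = 0.019), whereas the values of Saa3 (2.61, adjusted p = 0.10), Lcn2 (1.79, adjusted p = 0.063), C3 (0.76, adjusted p = 0.12) and Asgr2 (1.04, adjusted p = 0.092) no longer passed. With all mice the differences were 1.37 for Proz, 0.80 for Cfi, 2.37 for Saa3, 1.75 for Lcn2, 0.72 for C3 and 0.97 for Asgr2. The part of hepatocyte RNA in these results was not tested.

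**Figure D5:**
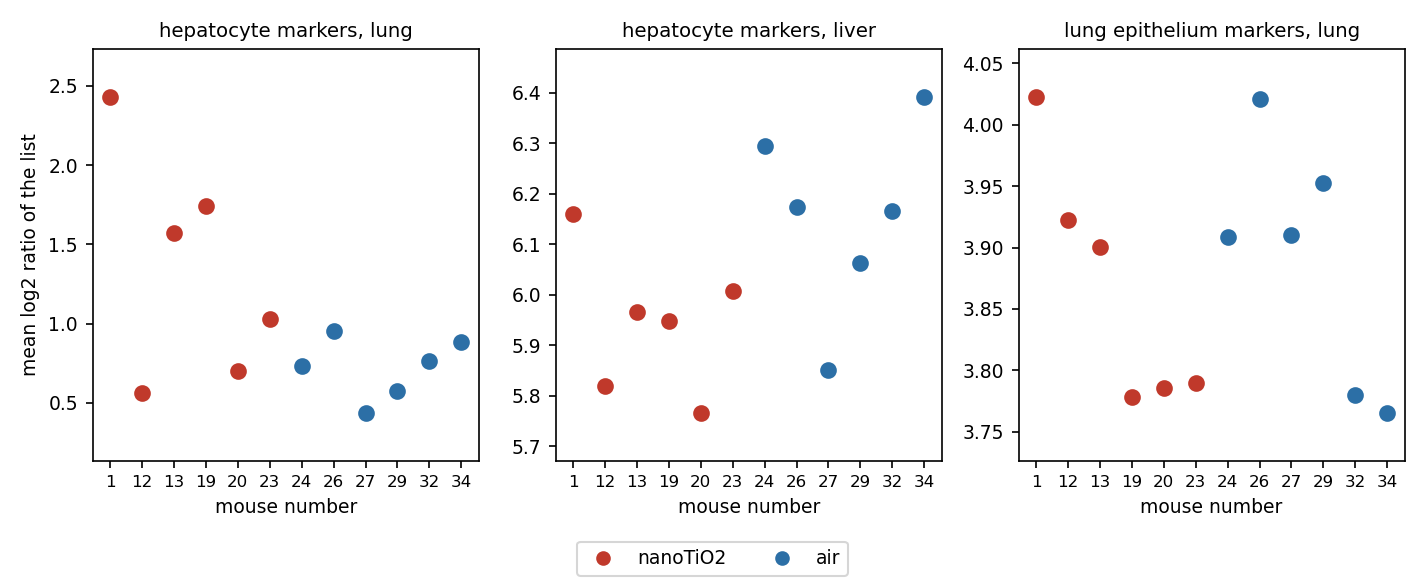
Mean log2 ratio of the hepatocyte markers in lung and in liver and of the lung epithelium markers in lung, 1 point a mouse by mouse number, exposed in red and air in blue; the vertical axes differ between panels and do not start at 0. Exposed mice 1, 13 and 19 stand above the other lungs for hepatocyte markers, and the groups overlap in the other 2 panels.

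Lung minus liver values fell at 4 probes in all. Cpne5, a calcium-dependent phospholipid-binding copine, showed the largest fall, with values of 0.59, 1.06 and 1.45 in the exposed mice and 1.71, 2.19 and 2.40 in the air mice. All exposed mice lay below all air mice, and the difference was -1.08 ± 0.14 (limma adjusted p = 0.0056), the same size as in lung alone, while the other 2 Cpne5 probes gave -0.33 and -0.07 and did not pass. Besides Siglecf, N28178, now named Phf24, fell by 0.40 at 1 of its 3 probes (adjusted p = 0.022). The probe with no gene name, TC1496338, gave -0.19 in lung and 0.23 in liver (unadjusted p = 0.0017), for a difference of -0.42 ± 0.07 (adjusted p = 0.038), and kept its call in 0 of the 12 fits that left out a mouse.

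The genes that rose outside these groups were few. Ch25h, which makes the oxysterol 25-hydroxycholesterol, had values of 3.57, 3.66 and 4.47 in the exposed mice and 1.83, 2.64 and 3.19 in the air mice. The lowest exposed mouse lay above the highest air mouse, and the difference was 1.22 ± 0.21 (limma adjusted p = 0.045). Its call was kept in 1 of the 12 fits that left out a mouse, and 4 of the 12 liver arrays were well above background. Lgi2, a secreted leucine-rich repeat protein, rose by 1.00 ± 0.16 (adjusted p = 0.034), while its other probe gave 0.61 and did not pass. D17H6S56E-5 rose by 0.80 ± 0.09 (adjusted p = 0.0026), while its other probe gave 0.70 and did not pass. Lemd1, a LEM domain protein, was well above background in all 6 exposed lungs and in none of the other 18 arrays, and its lung level was at least 1.53-fold higher in the exposed mice (limma adjusted p in lung = 2.8e-05). 1100001G20Rik, now Wfdc21, gave 0.93 ± 0.15 (adjusted p = 0.029) and -0.99 after normexp. Zmynd15 gave 0.64 ± 0.10 (adjusted p = 0.032) and -0.85 after normexp. 1300002K09Rik, now Stra6l, gave 0.84 ± 0.14 (adjusted p = 0.036) at 1 probe and 0.21 at the other. Just outside the threshold stood Acat3 at 0.32 and C8g at 0.55, both with an adjusted p of 0.053.

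The within-mouse mean of lung and liver was tested as well, but a change in lung alone also moves this mean. On the simulated arrays described below, 94% of probes changed in lung alone passed in the mean. Of probes changed in both organs 100% passed, so a pass does not show that both organs moved. In the real arrays the mean passed at 12 probes (0.0291%), all higher. At 11 of them, such as those of Ly6f and Noxo1, the liver difference lay between -0.10 and 0.04. Vnn1, a vanin pantetheinase of liver and epithelium, was the other one. Its lung ratio was 1.59, 1.71 and 1.81 in the air mice and 2.77, 2.99 and 3.45 in the exposed mice, and its liver ratio was 2.39, 2.93 and 3.57 in the air mice and 2.97, 3.35 and 4.35 in the exposed mice. The lung groups did not overlap and the liver groups did. The exposure difference was 1.36 in lung (limma adjusted p = 0.00011), 0.50 in liver (unadjusted p = 0.051) and 0.93 in the mean of both (adjusted p = 0.0079), and the lung minus liver difference of 0.86 did not pass (adjusted p = 0.65).

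A further list of 54 genes held those that the study itself names as measured, and Trem2, which the paper's main text does not name. It was chosen on these samples and so is no independent evidence of direction. Of its genes 53 were tested, 16 rose, 1 fell and 45 were positive, with a median of 0.72. The housekeeping gene Hprt1 gave -0.13 (adjusted p = 0.84). No gene passed among 27 interferon-stimulated genes (median 0.16), 26 Nrf2 target and antioxidant genes (median -0.07), 19 circadian clock genes (median -0.02), 26 cytochrome P450 genes (median 0.34), 24 sterol biosynthesis genes (median 0.18) and 29 coagulation factors (median 0.20), of which the interferon and P450 medians turned to -0.08 and -0.36 after normexp without marked spots.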

How the data were processed

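Total RNA of lung and liver was hybridised to 2-colour Agilent mouse arrays of 45018 spots, of which 1639 were control spots. The deposited value table holds log2 ratios of Cy5 sample over Cy3 reference RNA, normalised within each array by LOWESS by the authors. Its background treatment is not given in the sources used here, and its values correlated with the log2 ratio of uncorrected median intensities at r = 0.929 to 0.993. The deposited scanner files hold spot intensity, local background intensity and the log10 ratio of Agilent Feature Extraction, with flags for dim and uneven spots. They were read with different versions of that software for lung and liver, and were used for the flags and for alternatives.

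Spots marked as uneven or outlying (111 to 224 an array) and control spots were left out and spots of a probe were averaged, which left 41174 probes. The liver value of a mouse was subtracted from its lung value, 6 exposed and 6 air mice were compared with limma 3.58.1 in R 4.3.3 on probes with at least 3 mice a group, and Benjamini-Hochberg adjustment ran over all probes with a threshold of 0.05. MAANOVA, the test of the study's methods, was replaced by limma. Both organs of a number came from 1 mouse, as the labels of the mRNA arrays and the methods give them. The labels of the lung miRNA arrays conflict with these numbers in part. Numbers 12, 20 and 23, exposed on the mRNA arrays of both organs, are labelled as controls there, whereas numbers 1 and 13 are exposed on both array types. The source of this conflict was not tested. The deviations of lung and liver of a mouse from their group means correlated at r = -0.03 to 0.23 over probes, and 5 of the 12 mice were over 0.1. The mouse was the replicate, and the number of arrays limits the precision. On simulated arrays with a change of 1 on the log2 scale in lung alone at 200 of 40982 probes, 94.5% of these were called, as were 0% of 200 probes that changed equally in both organs and 17 unchanged probes. The simulated noise was normal and independent in the 2 organs, with no block or background effect. Only 14 of the 45 called probes differed by over 2-fold, so the 94.5% does not describe the smaller changes.

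The text names the 10 highest and 10 lowest differences among called genes (1 probe a gene, the brightest), the genes the study names, and called members of 27 gene lists, up to 4 a list with values. The lists were described on the brightest probe of each gene, and remaining called genes, further probes and the genes just outside the threshold were added after their values were seen. Mice, lists and tests were chosen with earlier results of these data known. Alternatives covered the background correction, normalisation, marked and dim spots, pairing, hybridization block, variance model, probe averaging and leaving out mice. Promoters and current symbols came from RefSeq tables (GRCm38.p6), which matched 44 of the 45 called probes. MiRNA arrays were not used here. Figures were drawn with matplotlib 3.10.9.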

Additional observations from a re-analysis of the deposited data

Results flagged for a closer look

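At 41 probes the exposure difference was higher in lung than in liver and at 4 probes it was lower, by the limma test of the difference itself, as the report gives gene by gene.

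The lung array of exposed mouse 7, whose liver was not on an array, took no part in the choice of the 45 probes. An alternative fit of all 28 mRNA arrays with no replicate block, which gave 49 calls, included it. It lay above all 6 air lungs at 38 of the 41 higher probes, against 9.45% of all probes, and below all 6 air lungs at 4 of the 4 lower probes, against 12.9% of all probes. The air lungs are those by which the probes were chosen, so the comparison is not independent of that choice. Its log2 ratio was -0.73 for Saa3 (air lungs -3.11 to -2.53), 2.71 for Ly6f (air lungs 0.27 to 0.41), 3.15 for Lcn2 (air lungs 1.00 to 1.37) and 0.32 for Cpne5 (air lungs 1.26 to 1.67). The 3 higher probes that did not lie above every air lung were those of C1s (0.10, air lungs up to 0.18), Cfi (0.65, air lungs up to 0.84) and Uroc1 (-0.11, air lungs up to -0.04).

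Single mice stood apart within their group at 7 of 122 groups examined, where chance gives about 1 in 20. Exposed mouse 20 had lung minus liver values of 3.38 for Lcn2 (other exposed mice 2.58 to 2.85), 4.47 for Ch25h (3.57 to 3.72) and 2.32 for Ccl12 (1.73 to 1.94). Exposed mouse 13 had -0.40 for Zmynd15 (0.01 to 0.24) and exposed mouse 1 had -0.0667 for the dimmer Trem2 probe (0.32 to 0.45). Air mouse 29 had -0.0925 for Lemd1 (other air mice 0.03 to 0.10) and air mouse 32 had -4.36 for Saa1 (-3.60 to -3.28).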

How the results depend on the processing

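The count of probes whose lung minus liver difference passed, 45 as reported, moved with the treatment of background and dye. It was 6 after normexp and loess on all spots, 3 after normexp without marked spots, 10 with the scanner software's log ratios, 3 with median centring of uncorrected ratios, and 43 with loess of uncorrected ratios; 9399, 10195 and 714 probes had an unadjusted p below 0.05 after normexp, normexp without marked spots and median centring. The values that changed sign after normexp on all spots and without marked spots were Proz (-0.21 and -0.16), Pigr (-0.66 and -0.67), Itih4 (-0.057 and -0.062), Vnn1 (-0.63 and -0.54), Vnn3 (-0.96 and -0.88), Fga (-0.43 and -0.35), Cfi (-0.67 and -0.64), Itgae (-0.021 and -0.066), 1100001G20Rik (-0.99 and -0.97) and Zmynd15 (-0.85 and -0.81), with Uroc1 on all spots alone (-0.057) and Pigr also with the software's ratios (-0.20). The cause was not tested. After normexp without marked spots 24 probes passed in lung, 0 in the within-mouse mean and 3 list genes in the difference, against 64, 12 and 25. Treating the 24 arrays with no replicate block for the mouse gave 42 calls, and a random replicate block for the pairing gave 47. The hybridization block gave 53 as a fixed term, which kept 34 of the 45, and 55 as a random one, which kept all 45, and 16 in blocks 1 to 3 alone, which leave 10 mice. In every setting 0 of the 45 probes kept their call. Leaving out 1 mouse gave 28 to 44 calls, with 28 without exposed mouse 20 and 29 without air mouse 24, and 24 of the 45 probes kept their call each time. None changed sign in these 12 fits, which the lack of overlap fixed in advance for all but Zmynd15. Besides the probes given above, the call was kept in 2 of the 12 fits for Mmp2, Timp1, Uroc1, Zmynd15, 1300002K09Rik and the dimmer Trem2 probe. It was kept in 3 for Lgi2, in 4 for Itgae and 1100001G20Rik and in 5 for Pigr. The same runs gave 45 to 66 in lung, 0 to 1 in liver (1 without air mouse 34) and 6 to 12 in the within-mouse mean (6 without exposed mouse 23, 7 without air mouse 26 or air mouse 29). Without exposed mice 1, 13 and 19, an alternative chosen after seeing the data, 24 probes passed in lung, 2 in the within-mouse mean and 12 list genes in the difference. At 4 of the 45 probes no liver array was well above background, which limits what their liver values show.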

Other observations

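Several lists with no called gene lay mostly above 0. Of 26 cytochrome P450 genes of drug metabolism, 24 had a positive lung minus liver difference, of 27 interferon-stimulated genes 26, of 13 fatty acid synthesis genes 12, and of 28 cell division genes 25, with medians of 0.34, 0.16, 0.42 and 0.14 beside -0.01 for all probes. The pattern depended on the background treatment: after normexp without marked spots 9, 13, 5 and 28 of them were positive, with medians of -0.36, -0.08, -0.01 and 0.91. In the interferon list the median was -0.03 in lung and -0.17 in liver. Of 24 sterol biosynthesis genes 20 were positive, with a median of 0.25 in lung and 0.05 in liver, and the mean log2 ratio of the list in lung was -0.36 to -0.12 in the exposed mice and -0.57 to -0.32 in the air mice. Plasma protein genes of the hepatocyte varied among exposed lungs: Fgb, a fibrinogen chain, had lung ratios of 0.57, 1.86 and 4.24 in the exposed mice and 0.22, 0.80 and 1.82 in the air mice, and F2, prothrombin, had -0.38, 0.61 and 2.13 against -0.41, -0.12 and 0.04. Both groups overlapped for each gene.

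Arrays of liver from mice without a lung mRNA array gave 4 of 41 higher probes above all air livers of the fits in exposed mouse 9. The count was 2 in air mouse 37 and 4 in air mouse 45. The share of all probes above the air livers was not computed, so these counts cannot be called high or low.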
